A study of Mus musculus with 6 samples.

Results

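Fos, Fosb, Egr1, Nr4a1 and Myc, 5 immediate-early genes that encode transcription factors, were followed in RAW264.7 macrophages kept in extract of a zinc-lithium scaffold. The genes were picked by name in the deposited table of 345 genes. That table holds only genes that had passed the thresholds of the G scaffold vs Control comparison, so all 5 were chosen by the same difference that is described here. Their differences are therefore given as a description, without a test. RAW264.7 is a mouse macrophage-like line established from a tumor that was induced by Abelson leukemia virus. The Control group held 3 libraries of cells that received no extract. The G scaffold group held 3 libraries of cells cultured for 48 h in extract of degradable Zn-0.8Li scaffolds with gyroid (G) pores, diluted 5-fold. Both groups shared the cell line, and the labels name no genetic change (their genotype field reads only control or Zn). Control cells were left without any extract, so zinc, lithium and other changes of the medium cannot be told apart. The labels do not say whether the 3 libraries of a group came from separate cultures, so the spread between them may be technical. One time point was sampled.

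Immediate-early genes are transcribed within minutes of a growth, stress or calcium signal, without new protein synthesis, and in most settings their mRNA decays quickly. Signals reach them through MAP kinases and calcium-dependent kinases, which act on the serum response factor and CREB already bound at the promoters. Fos and FosB join a Jun protein through a leucine zipper to form AP-1. Egr1 binds GC-rich sites through zinc fingers. Nr4a1 (Nur77) is an orphan nuclear receptor, and Myc pairs with Max to drive growth and metabolic genes. In macrophages these factors respond to bacterial products and to adhesion, and several of them feed back on inflammatory genes.

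Promoters are shown because all 5 genes were higher with extract, and for the 3 genes with an entry in the RefSeq promoter set used here (Fos, Fosb and Nr4a1). The sequences are RefSeq promoters of the C57BL/6J reference (build GRCm38.p6), matched by symbol, and cover the 250 bases before the start site. Capitals mark every match to the 8 motifs that were searched on both strands.

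Fos (chr12:85473640-85473889, plus strand): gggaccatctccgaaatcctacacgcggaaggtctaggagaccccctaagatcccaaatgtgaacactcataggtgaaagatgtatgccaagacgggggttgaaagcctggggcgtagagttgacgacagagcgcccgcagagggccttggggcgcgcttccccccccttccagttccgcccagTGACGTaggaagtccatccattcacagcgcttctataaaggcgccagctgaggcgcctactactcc
Fosb (chr7:19310046-19310295, minus strand): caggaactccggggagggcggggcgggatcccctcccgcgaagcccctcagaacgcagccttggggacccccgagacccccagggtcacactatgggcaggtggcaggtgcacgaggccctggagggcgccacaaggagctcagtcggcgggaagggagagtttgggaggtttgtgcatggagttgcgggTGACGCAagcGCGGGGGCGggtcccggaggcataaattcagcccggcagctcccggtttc
Nr4a1 (chr15:101266596-101266845, plus strand): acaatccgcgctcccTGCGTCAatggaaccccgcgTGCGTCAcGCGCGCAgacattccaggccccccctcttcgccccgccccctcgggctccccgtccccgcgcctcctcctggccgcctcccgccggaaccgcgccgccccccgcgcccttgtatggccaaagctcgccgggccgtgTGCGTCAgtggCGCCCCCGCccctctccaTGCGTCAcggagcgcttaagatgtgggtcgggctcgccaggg

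The Fos window held the core of a cAMP response element, TGACGT, at -66 to -61 from the start site, and 6.47% of 32851 promoters in the RefSeq set held that core in the same window. The variant TGACGCA, added to the search after these windows had been read, occurred at -60 to -54 in Fosb and 4 times in Nr4a1, always on the minus strand. It was present in 1.75% of all promoters. A match to the Egr motif GCGNGGGCG lay at -50 to -42 in Fosb and at -60 to -52 on the minus strand in Nr4a1, against 4.70% of all promoters. For the metal response element, TGCACNC and TGCGCNC were searched, and TGCGCNC occurred in Nr4a1 at -207 to -201 (12.5% of all promoters). TGCACNC (10.4%), the AP-1 motif TGANTCA (6.75%), the E-box CACGTG (6.02%) and the CArG box of serum response factor (1.47%) were not found in the 3 windows. Only these 250 bases were searched, so a motif further upstream would not be seen. None of the matches shared bases with another. These matches describe letters only.

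All 5 genes were higher in the G scaffold group. In each of the 5, all 3 G scaffold libraries lay above all 3 Control libraries, as they did in 286 of the 345 genes of the table (82.9%). Values are normalized counts, which are gene reads divided by the size factor of the library. Log2 differences are the group coefficients of a limma fit on log2(normalized count + 1), given with their standard errors (SE).

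Fos encodes an AP-1 subunit (MGP_SPRETEiJ_G0018813, chromosome 12 from 79311599 to 79314974 in the table's coordinates). In replicate order, the Control libraries had 265, 335 and 350 normalized counts, and the G scaffold libraries had 1280.3, 1178 and 1274. The groups were far apart, with the lowest G scaffold library 3.37 times the highest Control library. The means were 317 ± 45.2 and 1244 ± 57.3 (SD, n = 3 each), a ratio of 3.93 and a log2 difference of 1.98 (SE 0.155). The Fos gain was near the middle of the table, where the median log2 difference was 1.87. In the order of log2 differences Fos ranked 164.

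Fosb encodes the second Fos protein in this set, which also needs a Jun partner (MGP_SPRETEiJ_G0030367, chromosome 7 from 11732315 to 11739650, minus strand). It was close to silent in Control, with 11.9, 8.66 and 2.87 normalized counts, which were 12, 8 and 3 reads. The G scaffold libraries had 565, 467 and 512 normalized counts from 560, 484 and 523 reads. The lowest of them was 39.2 times the highest Control library, the widest gap among the 5 genes. The mean went from 7.82 ± 4.59 to 515 ± 48.8 (SD, n = 3 each), with a log2 difference of 6.03 (SE 0.445), which ranked 4 among the 345 genes. How large this difference is depends on few Control reads. For Control replicate 3 the exact Poisson 95% interval ran from 0.591 to 8.38 normalized counts, which covers counting error only, and with pseudocount 10 the log2 difference was 4.91.

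Egr1, the zinc finger factor, had the second largest difference of the 5 (MGP_SPRETEiJ_G0023013, chromosome 18 from 32998303 to 33004929). Control libraries had 473, 447 and 479.7 normalized counts, and the G scaffold libraries had 2489, 2527 and 2816. The 3 Control values were tightly grouped, and the lowest G scaffold value was 5.19 times the highest of them. The means were 467 ± 17.3 and 2610.5 ± 179 (SD, n = 3 each), a ratio of 5.60 and a log2 difference of 2.48 (SE 0.125). In the order of log2 differences Egr1 ranked 129.

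Nr4a1, the orphan nuclear receptor, showed the smallest log2 difference of the 5 (MGP_SPRETEiJ_G0021200, chromosome 15 from 102177486 to 102185268). It had 151, 187 and 185 normalized counts without extract and 433, 452 and 475 with it. The groups did not overlap, and the lowest G scaffold library was 2.32 times the highest Control library. The means were 175 ± 20.4 and 454 ± 20.7 (SD, n = 3 each), with a log2 difference of 1.38 (SE 0.143) in the scaling as deposited, which became -0.10 with TMM factors computed from the table (another library scaling).

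Myc, the growth-promoting bHLH factor, had the lowest level per kilobase of gene in the G scaffold group (MGP_SPRETEiJ_G0020731, chromosome 15 from 60740324 to 60745309). Its Control libraries had 6.96, 9.74 and 19.1 normalized counts (7, 9 and 20 reads), and its G scaffold libraries had 39.3, 27.0 and 33.3 (39, 28 and 34 reads). The highest Control and the lowest G scaffold library were close, at a ratio of 1.41. Their exact Poisson 95% intervals overlapped, from 11.7 to 29.5 and from 18 to 39.0. The means were 11.9 ± 6.37 and 33.2 ± 6.15 (SD, n = 3 each), a log2 difference of 1.5 (SE 0.361). Without Control replicate 3, the highest of that group, the log2 difference was 1.87, and without Control replicate 1 it was 1.20. With TMM factors computed from the table it was 0.095. Myc therefore had the least separated groups of the 5 genes.

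**Figure D1:**
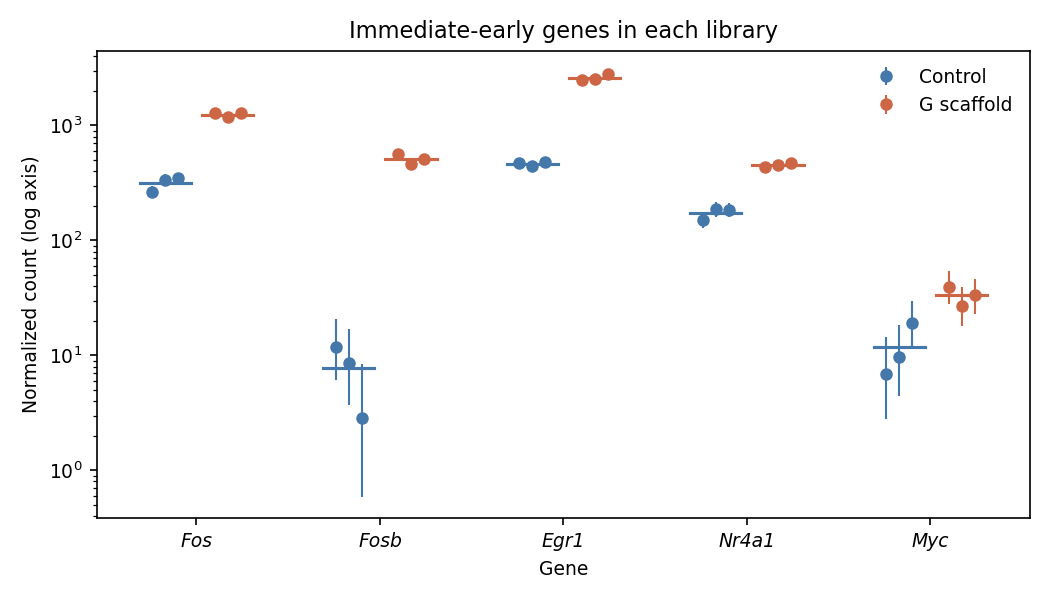
Normalized counts (log axis) of the 5 immediate-early genes in each of the 3 Control and 3 G scaffold libraries. Points are libraries in replicate order, vertical bars are exact Poisson 95% intervals (counting error only) and horizontal lines are group means. Fosb shows the widest gap, from 2.87 to 11.9 in Control against 467 to 565, and Myc the narrowest, from 6.96 to 19.1 against 27.0 to 39.3.

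Among all genes of the table, Fosb stood near the top, and the other 4 genes lay close to the bulk of the higher genes. Relative to the median of all 345 genes, the log2 differences of Fosb and Egr1 were higher by 4.17 and 0.62, and that of Fos by 0.11. Nr4a1 and Myc were at -0.49 and -0.37 from it. The median over the 5 genes was 1.98, beside 1.87 over the table and 2.33 over the 287 genes that were higher. The table median mixes higher and lower genes that were all selected on this contrast. Myc and Fosb overlapped in Control per kilobase of gene length, and yet differed in their log2 differences, 1.5 and 6.03.

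**Figure D2:**
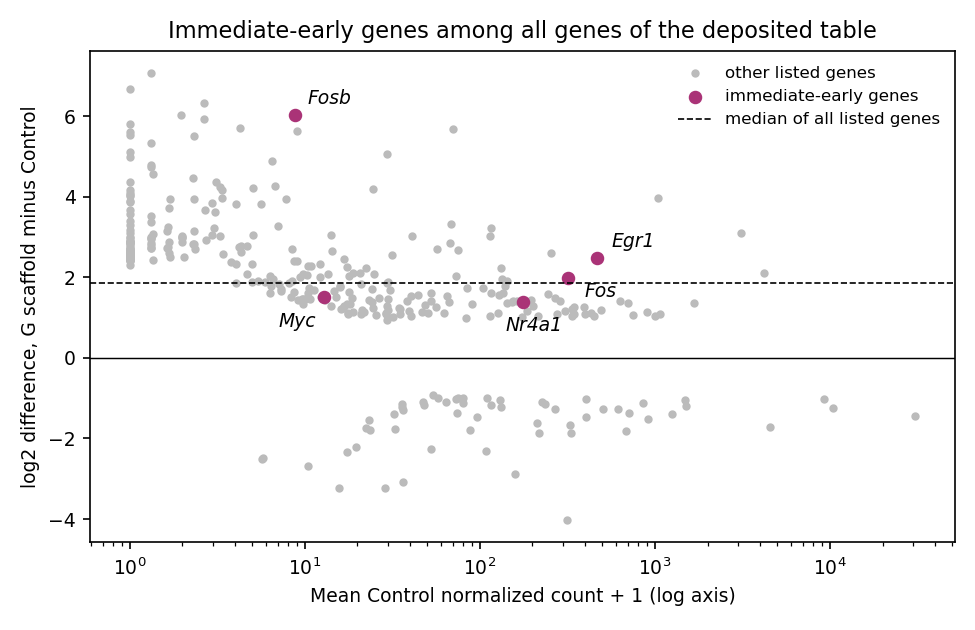
Log2 difference (G scaffold minus Control) against the mean Control normalized count + 1 (log axis) for all 345 genes of the deposited table. Fosb, at 6.03, lies far above the dashed median of 1.87, while Fos, Egr1, Nr4a1 and Myc lie between 1.38 and 2.48.

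Levels of different genes were compared per kilobase of the gene length that the table lists. In Control the order was Fos (135 ± 19.2 normalized counts per kilobase), Egr1 (104 ± 3.86), Nr4a1 (70.3 ± 8.20), Myc (4.48 ± 2.39) and Fosb (2.08 ± 1.22; SD, n = 3 for each). Myc and Fosb, the last pair, overlapped between libraries. Fos and Egr1 did not, but the lowest Fos library (113) was close to the highest Egr1 library (107).

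In the G scaffold group the order per kilobase was Egr1 (582 ± 39.8), Fos (529 ± 24.3), Nr4a1 (183 ± 8.33), Fosb (137 ± 13.0) and Myc (12.5 ± 2.31; SD, n = 3 for each). No neighbours overlapped between libraries. Egr1 and Fos were near each other, with a lowest Egr1 library of 555 and a highest Fos library of 544. Within each of the 6 libraries Fos was above Egr1 in Control and below it in the G scaffold group. Fosb moved from the last place to a place beside Nr4a1. The length used matters for Fosb. With the summed exon length in GENCODE M21 (6243 bases in place of 3756), an alternative chosen after the values were seen, its G scaffold level was 82.4 ± 7.82 per kilobase and that of Nr4a1 129 ± 5.89. The order of the 5 genes was the same in both groups with these lengths.

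The make-up of the 5-gene sum was read from shares inside each library, which do not depend on the library scaling. The shares do depend on the gene lengths, here those that the table lists. With the GENCODE lengths Fosb and Nr4a1 had lower levels per kilobase in both groups, and the shares below do not use those lengths. The sum went from 316 ± 27.6 to 1443 ± 64.3 per kilobase (SD, n = 3 each), a ratio of 4.57. Fosb made up 1.11%, 0.712% and 0.226% of it in the Control replicates against 10.4%, 9.0% and 9.03% in those with extract. Nr4a1 went the other way, from 22.2% ± 0.983 to 12.7% ± 0.532, although its normalized count was higher. Egr1 took 33.1% ± 3.38 in Control and 40.3% ± 1.57 with extract, and Fos 42.5% ± 2.55 and 36.7% ± 1.03. For all 4 genes the shares of the groups did not overlap. The share of Myc was 1.39% ± 0.643 and 0.863% ± 0.149, with libraries of the groups overlapping.

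**Figure D3:**
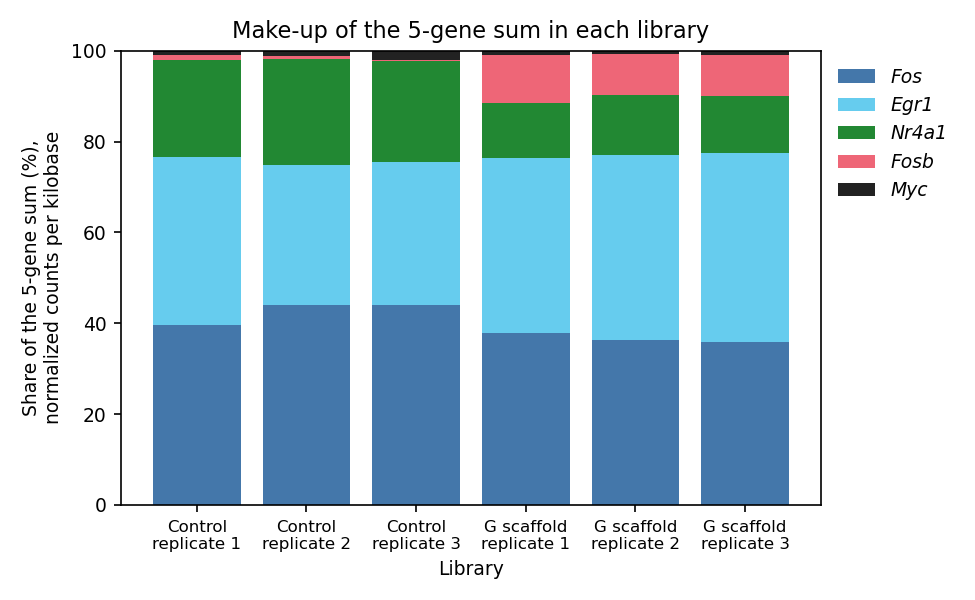
Share of each gene in the 5-gene sum of normalized counts per kilobase of the listed gene length, as a percent, in each of the 6 libraries. Fosb is a thin band of at most 1.11% in Control and 9.0% to 10.4% in the G scaffold group, while the Nr4a1 band narrows from about 22.2% to 12.7%.

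The balance between the Fos family genes was the clearest of these within-library values. For each Fos read there were 0.0449, 0.0258 and 0.00820 Fosb reads in the Control replicates, against 0.441, 0.396 and 0.402 after extract. The Fosb-to-Fos read ratio was thus similar in the 3 treated libraries, and scattered in Control, where few Fosb reads were counted. The log2 ratio differed by 4.28 between the groups, and by 3.60 without Control replicate 3. The Egr1-to-Nr4a1 read ratio was 3.13, 2.39 and 2.59 in Control against 5.74, 5.58 and 5.93 with extract. Nr4a1 reads per Fos read were 0.552 ± 0.0202 and 0.365 ± 0.0237 (SD, n = 3 each). Within Control, the 3 Nr4a1-to-Fos ratios lay between 0.530 and 0.569, although Fos itself ranged from 265 to 350 normalized counts, and Fos and Nr4a1 were both lowest in replicate 1.

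The spread between libraries differed among the 5 genes. The variance over the mean of the normalized counts, which is near 1 for counting error alone, was 6.44 for Fos without extract and 2.64 with it. It was 0.642 and 12.2 for Egr1, where replicate 3 was highest with extract. As a percent of the mean, the SD of Egr1 was 3.71 in Control and 6.84 with extract. The variance over the mean was 2.69 in Control and 4.64 with extract for Fosb. It was 2.38 and 0.943 for Nr4a1, and 3.40 and 1.14 for Myc. The medians over the table were 1.11 and 1.37, while the median of the gene means was 14.7 in Control and 42.6 with extract. Beyond counting error this ratio rises with the level, so genes and groups of unlike level are hard to compare by it. The SD as a percent of the mean was 14.3 in Control and 4.60 with extract for Fos, and 58.7 and 9.49 for Fosb. It was 11.7 and 4.56 for Nr4a1, and 53.4 and 18.5 for Myc. Each of these values rests on 3 libraries. In G scaffold replicate 2 all 5 genes were below their group mean on the log2 scale, with a median deviation of -0.078, against a median of -0.0317 over all genes of the table in that library. Control replicate 1 had the lowest Fos, Nr4a1 and Myc and the highest Fosb of its group.

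The size of the differences rests on the size factors. These lay between 0.924 and 1.05, so the deposited values are close to the reads themselves. Over the 345 genes the Control libraries held 88836 to 100895 reads and the G scaffold libraries 150056 to 156029. Totals of whole libraries are not analysed here. Scaled to column totals over these genes, the log2 differences were 1.33 for Fos, 5.43 for Fosb, 1.83 for Egr1, 0.73 for Nr4a1 and 0.89 for Myc. With TMM factors computed from the same genes they were 0.50, 4.64, 0.997, -0.10 and 0.095. These scalings shifted the median of all listed genes by -0.60 and -1.39. Relative to the shifted median, Fosb stayed higher by 4.17 and 4.16 and Nr4a1 at -0.53 and -0.58. TMM takes most genes as unchanged, which is not so in a table of selected genes. In the table as a whole limma called 285 genes higher (82.6%) and 55 lower at an adjusted p of at most 0.05 and an absolute log2 difference of at least 1, and 135 higher and 58 lower with TMM factors. Of the 5 immediate-early genes, all of which had entered the table by passing such a threshold, 3 had a log2 difference of at least 1 with column totals (Fos, Fosb and Egr1) and only Fosb with TMM factors.

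**Figure D4:**
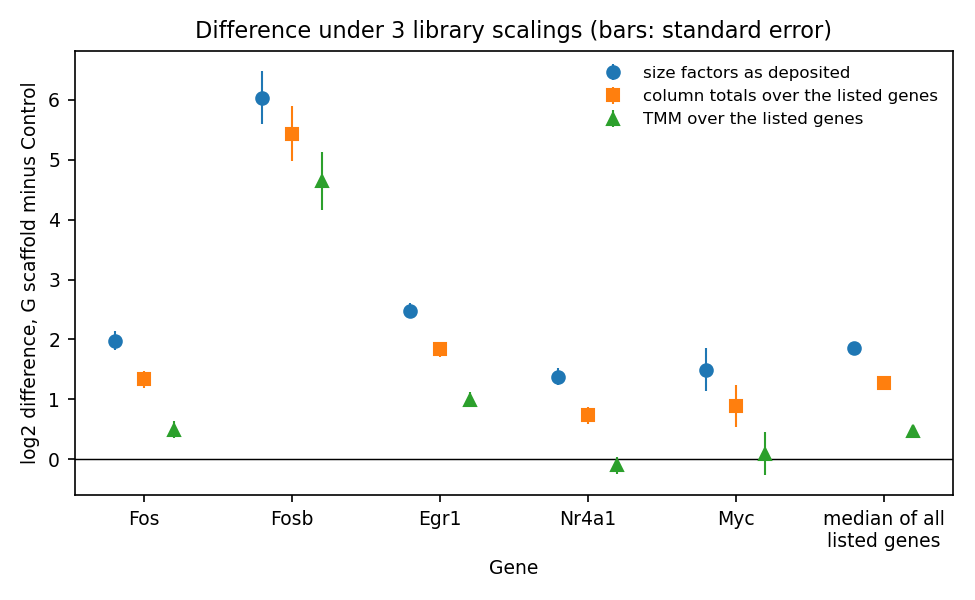
Log2 difference (G scaffold minus Control) of each gene with the deposited size factors, with column totals and with TMM factors, both from the table; bars are standard errors and the last position is the median of all listed genes. All 5 values drop together with the median, from 1.38 to -0.10 for Nr4a1, and Fosb stays at 4.64 or above.

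Genes that work beside these 5 factors were taken from lists of general knowledge. A gene outside the table is not analysed here, so a list can only be read through its listed genes. Values and calls with TMM factors rest on the selected genes, as said above, and do not show that a gene was unchanged. Of 15 AP-1 and related bZIP genes, 3 were in the table and all 3 were called higher by limma, where 82.6% of the whole table was, and 1 of the 3 was called with TMM factors. Fosl1, which encodes the Fos family protein Fra-1, had 80.5, 60.6 and 59.2 normalized counts in Control and 498, 456 and 503 with extract, with a log2 difference of 2.86 (SE 0.165). Its gain was thus larger than that of Fos and smaller than that of Fosb. The small Maf gene Maff went from 83.0 ± 18.1 to 278 ± 37.8 normalized counts (SD over 3 libraries each). Its log2 difference of 1.74 became 0.27 with TMM factors, under which it was not called. No Jun gene, the partners that Fos proteins need, is in the table.

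For the other factors the table held little. None of 7 Egr and Nr4a relatives and Egr co-repressors was listed, and none of 30 upstream kinases and promoter-bound activators, among them serum response factor, CREB and the metal-responsive factor Mtf1. Of 12 genes of the Myc network, 1 was listed. Mxd4 encodes a Max partner that represses Myc target sites, and it was called lower. It had 566, 442 and 503 normalized counts without extract and 189.5, 217 and 220.3 with it, a log2 difference of -1.26 (SE 0.152). Mxd4 thus lay opposite in direction to Myc.

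Of 45 other immediate-early genes, 15 were in the table, all called higher (82.6% over the whole table). Their median log2 difference was 3.02, beside 2.33 over the 287 higher genes of the table and 1.87 over all its genes. The table was selected on this contrast, and the list was chosen with earlier results known, so the count and the median add little. With TMM factors 8 of the 15 were called higher (39.1% over the whole table), and the 7 not called were Zfp36, Ier2, Ier3, Dusp2, Plk3, Ptgs2 and Id1. The 3 with the highest mean were Arc, a synaptic and cytoskeletal regulator, the mRNA-decay factor Zfp36 and the nuclear protein gene Ier2. Arc went from 69.0 ± 10.04 to 3582 ± 37.4 normalized counts (SD, n = 3 each), a log2 difference of 5.69. Zfp36 and Ier2 had 907 ± 67.9 and 749 ± 54.2 normalized counts in Control, with log2 differences of 1.15 and 1.06, which became -0.34 and -0.42 with TMM factors, and Ier2 was at 0.99 without G scaffold replicate 1. Of 23 textbook targets of AP-1, Egr1 or Myc, 4 were in the table and called higher, again beside 82.6% over the table, and 2 of the 4 were called with TMM factors. The growth factor gene Vegfa and the urokinase receptor gene Plaur had log2 differences of 1.04 and 1.42. That of Vegfa was 0.97 without Control replicate 3, and with TMM factors Vegfa and Plaur were at -0.44 and -0.060.

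**Figure D5:**
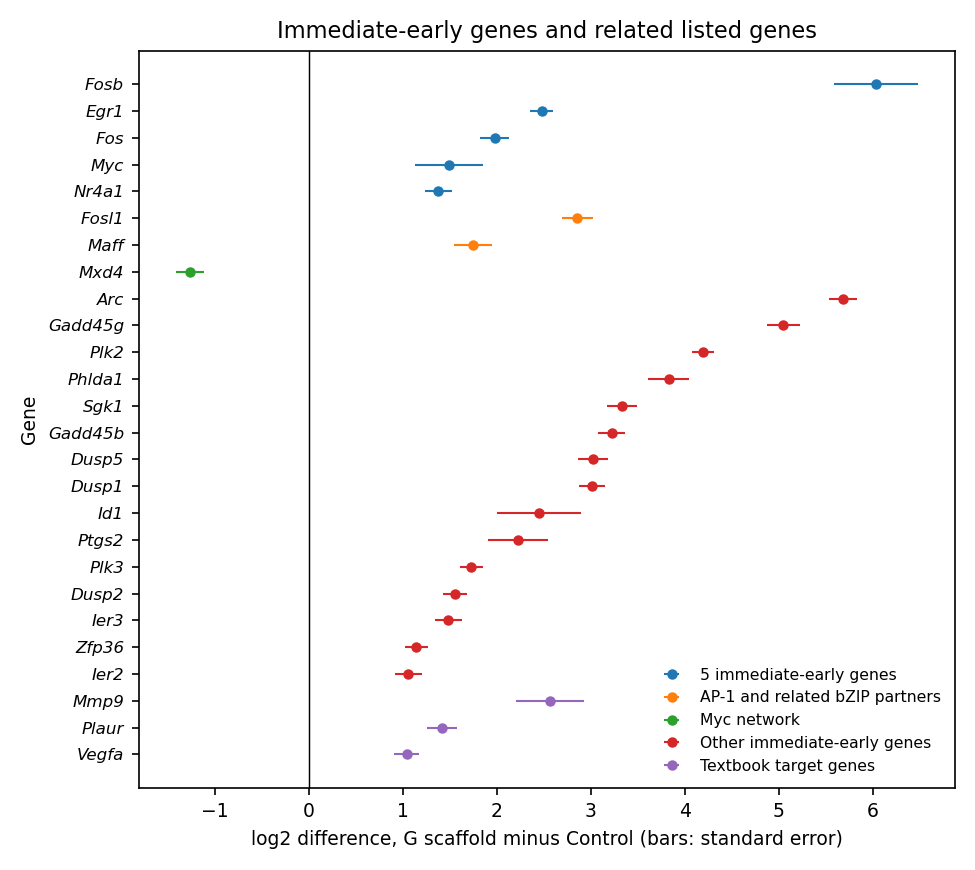
Log2 difference (G scaffold minus Control) with its standard error for the 5 immediate-early genes and for genes of the related lists that are in the table. All plotted genes lie above 0 in the scaling as deposited except Mxd4 at -1.26, and Fosb (6.03) and Arc (5.69) lie highest.

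The genes with the most similar profiles were found by the root mean square difference of log2(normalized count + 1) over the 6 libraries, each profile centered on its own mean. For Fos these were the chemokine gene Ccl4 (0.0862) and Spp1, which encodes osteopontin (0.129). Ccl4 had 142 ± 23.8 and 532 ± 66.9 normalized counts and Spp1 4215 ± 209 and 18167 ± 487 in Control and the G scaffold group. For Nr4a1 they were Rnd1, a small GTPase gene (0.0698), and Plaur (0.0976). The profile of Fosb had no close match, with Rasl11b at 0.536 and Arc at 0.538, and Rasl11b had at most 1 read in any Control library. Myc was nearest to Hist1h4d (0.313) and Padi2 (0.315).

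For Egr1 the nearest profiles were those of Areg (0.0645) and Rtbdn (0.0817), but both had 0 reads in every Control library and group means of 4.58 and 4.92 normalized counts with extract, so their place depends on the pseudocount. Among genes with at least 10 normalized counts in every library, a filter added after the values were seen, Baiap2 was nearest to Egr1 (0.115), with 253 ± 13.9 and 1543 ± 81.8 normalized counts (SD, n = 3 each). With 2 groups of 3 libraries, likeness mostly reflects a similar size of the group difference.

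Few cell type markers could be read. Of 14 macrophage markers, 1 was in the table, Mpeg1, which encodes perforin-2 and went from 9263 ± 595 to 4530.0 ± 329 normalized counts (SD, n = 3 each). Of 22 markers of other cell types, 1 was in the table, the collagen gene Col1a1, with 0 reads in every Control library and 8.06, 8.68 and 4.89 normalized counts in the G scaffold libraries. The mean of Col1a1 in the G scaffold group was 2.38 times a floor of 3 reads per library. In bulk RNA, fewer cells of a type and less RNA per cell cannot be told apart, and the part of these markers in the differences of the 5 genes was not tested.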

How the data were processed

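RNA of 6 RAW264.7 libraries (3 Control, 3 G scaffold; groups and replicate numbers from the sample titles) was sequenced. The authors deposited a signal per gene and library, which is the gene read count divided by a library size factor, and gene_length, which is another column used here. They also deposited group means, a fold change, p-values and adjusted p-values, which were not used. Of 345 genes, 329 carry identifiers of the SPRET/EiJ (Mus spretus) annotation, whose coordinates are printed, while the submitters' processing notes name GRCm38 and mm10. Aligner and counter are not given in the sources used here, nor whether counting used strand. In GENCODE M21 no other gene overlaps any of the 5.

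Reads were recovered as multiples of the lowest value above 0 in each library (100% whole within 0.001). limma 3.58.1 in R 4.3.3 was fitted on log2(normalized count + 1) for the 2 groups, without covariates, and p-values were adjusted by Benjamini-Hochberg over the 345 genes. edgeR 4.0.16 and DESeq2 1.42.0 on recovered reads, other scalings, pseudocounts, filters, a replicate block and left-out libraries were alternatives. The fits were tested on simulated data. The 5 genes and the lists were chosen with earlier results of these data known. Named genes were the 5, every listed gene of the AP-1, Egr and Nr4a, Myc network and upstream lists, the 3 of highest mean in other lists, the transcription factors of highest mean, and the 2 nearest profiles. Analyses used Python 3.11.15, pandas 2.3.3, numpy 2.4.6, scipy 1.17.1 and matplotlib 3.10.9. Promoters of Egr1 and Myc are not shown. Values of some listed genes are not reported here.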

Additional observations from a re-analysis of the deposited data

How the results depend on the processing

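The log2 differences of Fosb, Egr1, Fos and Myc stayed above 0 under all alternatives run, and that of Nr4a1 under all but TMM factors over the listed genes (-0.10). TMM factors also moved Fos to 0.50, Fosb to 4.64, Egr1 to 0.997 and Myc to 0.095. Column totals moved Fos to 1.33, Egr1 to 1.83, Nr4a1 to 0.73 and Myc to 0.89. Both scalings were computed from genes selected on this contrast, most of them higher, and so lower the log2 differences. They are no check on size factors of whole libraries. Pseudocount 10 moved Fosb to 4.91. edgeR and DESeq2 on recovered reads and pseudocount 0.1 moved none of the 5 by more than the spread between replicates. Both filters on low values cannot change the log2 difference of a gene that they keep, since limma fits each gene on its own. The filter at 10 in every library gave no value for Fosb and Myc, and that at a mean of 100 none for Myc. Leaving out 1 library at a time gave 1.86 to 2.06 for Fos, 5.52 to 6.39 for Fosb, 2.42 to 2.51 for Egr1, 1.28 to 1.43 for Nr4a1 and 1.20 to 1.87 for Myc, and 3.60 to 4.83 for the Fosb-to-Fos log2 ratio.

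Over the whole table, the 285 genes called higher became 135 with TMM factors, 115 with the filter at 10 and 68 with the filter at a mean of 100, which left 23 lower genes in place of 55. Both filters test fewer genes. Same-numbered libraries did not deviate together (correlations of 0.0047, -0.035 and -0.071 over genes). With 3 libraries per group this cannot tell whether they shared a culture or a batch. A replicate block gave 284 higher and 55 lower. It left the 5 log2 differences as they were, which it must, since each replicate number occurs once in both groups. Few reads limit Fosb and Myc in Control, where 23 and 36 reads were counted over 3 libraries.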

Other observations

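Transcription factor genes outside the 5 were read from the protein family column of the table, with DNA-binding family names picked after the column was seen. This column names a family for 170 genes and gives none for Egr1. It marked 13 genes with a transcription factor domain, 4 of them among the 5, and of the other 9 limma called 7 higher (82.6% over the whole table, which was selected on this contrast) and 2 lower. The 2 lower genes were Mxd4 and Rarb, a retinoic acid receptor gene, which went from 212 ± 7.05 to 68.9 ± 3.71 normalized counts (SD, n = 3 each), a log2 difference of -1.61. Grhl2, an epithelial transcription factor gene of the grainyhead family, had 0 reads in every Control library and a mean of 45.9 ± 7.08 normalized counts in the G scaffold group. Id1, which encodes an inhibitor of bHLH factors, went from 15.8 ± 9.25 to 84.5 ± 25.4 and was not called with TMM factors. Rarb, Grhl2 and Id1 were named here after their values were seen.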
